A study of Mus musculus with 10 samples.

Results

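The genes described are the 9 surface Toll-like receptors and coreceptors Tlr1, Tlr2, Tlr4, Tlr5, Tlr6, Cd14, Ly96, Cd180 and Ly86, taken by name from the 22180 genes with a probe set of a single gene symbol. Each of them had 1 such probe set, and all 9 passed the filter on low values that left 13371 genes for testing. They were measured on 10 Affymetrix Mouse Gene 2.0 ST arrays of splenic CD11c+ dendritic cells (DCs), which present antigen to T cells, isolated with magnetic beads. There were 2 arrays of WT unstimulated DCs, 3 of WT CpG-stimulated DCs, 2 of C3ar1-/-C5ar1-/- unstimulated DCs and 3 of C3ar1-/-C5ar1-/- CpG-stimulated DCs. C3ar1-/-C5ar1-/- (DKO) mice lack the receptors of the complement fragments C3a and C5a. CpG at 100 µg or vehicle was injected 4 h before isolation, so the DCs met CpG inside the animal. The strain, age and sex of the mice, the cells in which the receptors were deleted and the number of mice per array were not stated in the labels. Nothing says that the arrays of a group came from separate mice, and p-values then measure only the spread between these arrays, which may be technical. Values are log2 intensities, on which a difference of 1 is a factor of 2, and they are compared between arrays for a gene and never between genes.

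Surface Toll-like receptors (TLRs) recognise microbial surface molecules outside the cell, whereas CpG DNA is recognised by Tlr9 inside endosomes, so none of the receptors described here is the sensor of CpG. Tlr2 pairs with Tlr1 or Tlr6 to bind bacterial lipopeptides. Tlr4 binds lipopolysaccharide together with its partner Ly96 (MD-2), after Cd14 has handed the lipid over. Tlr5 binds flagellin. Cd180 (RP105) is a TLR relative without the intracellular signalling domain, is held at the surface by Ly86 (MD-1), a relative of Ly96, and is known from B cells, DCs and macrophages.

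The isolates carried DC genes in every array. All 9 tested conventional DC markers lay above the array median in all 10 arrays, with Itgax (CD11c) at 10.72 to 11.89. The targeted genes were lower in the DKO arrays, C3ar1 at 5.27 to 5.64 against 5.80 to 6.59 in WT and C5ar1 at 4.42 to 4.99 against 5.51 to 7.32, but where the probes lie with respect to the deletions was not examined here. Markers of other cells were also present. All 14 splenic macrophage markers lay above the array median in every array, and 10 to 12 of 12 tested B cell markers and 5 to 14 of 14 tested neutrophil markers did. These counts are partly set by the filter, since a marker was tested only if it exceeded the same median in at least 2 arrays. Of the markers with a probe set, 12 of 13 for B cells and 14 of 16 for neutrophils passed it. The neutrophil marker Ly6g did not, and exceeded the median only in WT CpG 2. DKO unstimulated 2 and DKO CpG 3 stood apart: the median of their macrophage markers, each centred on its mean over the arrays, was -1.15 and -1.21, against 0.05 to 0.62 in the other 8 arrays. These 2 arrays and WT CpG 3 have titles numbered 20 and over, and the other 7 have lower numbers. The labels speak of a first batch without saying which samples it held, so the title numbers are only a stand-in for it. The 3 DKO arrays with lower title numbers carried Y-linked signal, and the other 7 arrays did not.

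Promoter sequences are shown for 5 genes, 3 whose intensity rose with CpG in WT or DKO DCs (Tlr1, Tlr2 and Tlr6) and 2 whose intensity fell (Tlr5 and Cd180). The reference promoter table held 6 of the 9 genes (these 5 and Ly86), and it did not list Tlr4, Cd14 and Ly96. Each sequence is the 250 bases before a start in RefSeq (GRCm38.p6), read 5′ to 3′ on the gene's strand, and capitals mark matches to any of 5 motifs searched on both strands. The motifs were the NF-kB consensus, GAGGAA (the core bound by PU.1), GAAA followed by any 2 bases and GAAA (the core of the interferon-stimulated response element), TGANTCA (AP-1) and TATAAA (the TATA box). For Tlr1, Tlr6 and Cd180, which have 2 starts in the table, the first listed is shown. Tlr2 is on chr3:83841609-83841858 (minus strand), Tlr6 on chr5:64959167-64959416 (minus), Tlr1 on chr5:64933559-64933808 (minus), Tlr5 on chr1:182954538-182954787 (plus) and Cd180 on chr13:102693297-102693546 (plus).
Tlr2: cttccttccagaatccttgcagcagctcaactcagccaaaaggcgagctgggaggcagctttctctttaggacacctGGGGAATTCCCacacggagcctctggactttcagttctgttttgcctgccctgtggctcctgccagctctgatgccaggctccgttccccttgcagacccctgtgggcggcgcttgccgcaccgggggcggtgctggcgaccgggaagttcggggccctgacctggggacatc
Tlr6: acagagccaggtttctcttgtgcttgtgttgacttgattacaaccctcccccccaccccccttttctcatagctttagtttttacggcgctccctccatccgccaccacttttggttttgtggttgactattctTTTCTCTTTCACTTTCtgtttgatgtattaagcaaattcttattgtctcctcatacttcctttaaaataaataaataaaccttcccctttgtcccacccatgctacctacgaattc
Tlr1: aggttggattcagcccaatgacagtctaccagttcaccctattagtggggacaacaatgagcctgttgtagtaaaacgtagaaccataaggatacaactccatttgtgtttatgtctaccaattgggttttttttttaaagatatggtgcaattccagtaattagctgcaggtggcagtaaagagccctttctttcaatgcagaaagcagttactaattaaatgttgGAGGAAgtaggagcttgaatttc
Tlr5: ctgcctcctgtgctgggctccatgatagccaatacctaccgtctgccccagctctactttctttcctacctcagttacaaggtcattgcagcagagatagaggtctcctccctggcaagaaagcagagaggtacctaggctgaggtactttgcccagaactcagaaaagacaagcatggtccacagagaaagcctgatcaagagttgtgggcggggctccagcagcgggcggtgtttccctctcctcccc
Cd180: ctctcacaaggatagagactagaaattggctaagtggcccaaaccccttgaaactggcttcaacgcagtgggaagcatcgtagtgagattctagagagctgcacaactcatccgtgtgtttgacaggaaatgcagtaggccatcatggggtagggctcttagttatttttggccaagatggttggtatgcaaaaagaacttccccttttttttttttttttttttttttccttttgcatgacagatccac

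The Tlr2 promoter held the NF-kB consensus as GGGAATTCCC, which reads the same on both strands, 172 to 163 bases before the start, with an overlapping match a base further upstream. The consensus was found in 7.25% of the 32851 promoters of the table. The Tlr6 sequence held 2 overlapping interferon-response cores on the minus strand of the gene, between 116 and 101 bases before the start, a motif found in 2.98% of promoters. At the second Tlr6 start the matches were 3 TATA boxes on the opposite strand, a motif found in 12.4% of promoters. The Tlr1 sequence held the PU.1 core GAGGAA 23 to 18 bases before the start, as did 23.3% of promoters somewhere in the window. None of the 5 motifs was found before the other Tlr1 start or in the windows of Tlr5, Cd180 and Ly86. AP-1, found in 6.75% of promoters, was in none of these windows. A match describes the letters only.

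The first comparison asks what CpG changes in WT DCs. Of the 9 genes, 3 rose (Tlr1, Tlr6 and Ly96) and 2 fell (Cd180 and Tlr5), while Tlr2, Cd14, Tlr4 and Ly86 did not pass. Calls required an adjusted p under 0.05 in limma's moderated test, with Benjamini-Hochberg adjustment over the 13371 genes. This rule called 21.6% of all genes, 8.24% higher and 13.3% lower. The 9 genes had a median difference of 0.53, against -0.04 over all genes tested. At an unadjusted p under 0.05 there were 7 of 9, against 32.7% of all genes. The 3 CpG arrays lay wholly above the 2 unstimulated arrays in 5 of the 9 genes and wholly below in 2, against 21.2% and 31.2% of all genes, or 52.4% together.

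**Figure D1:**
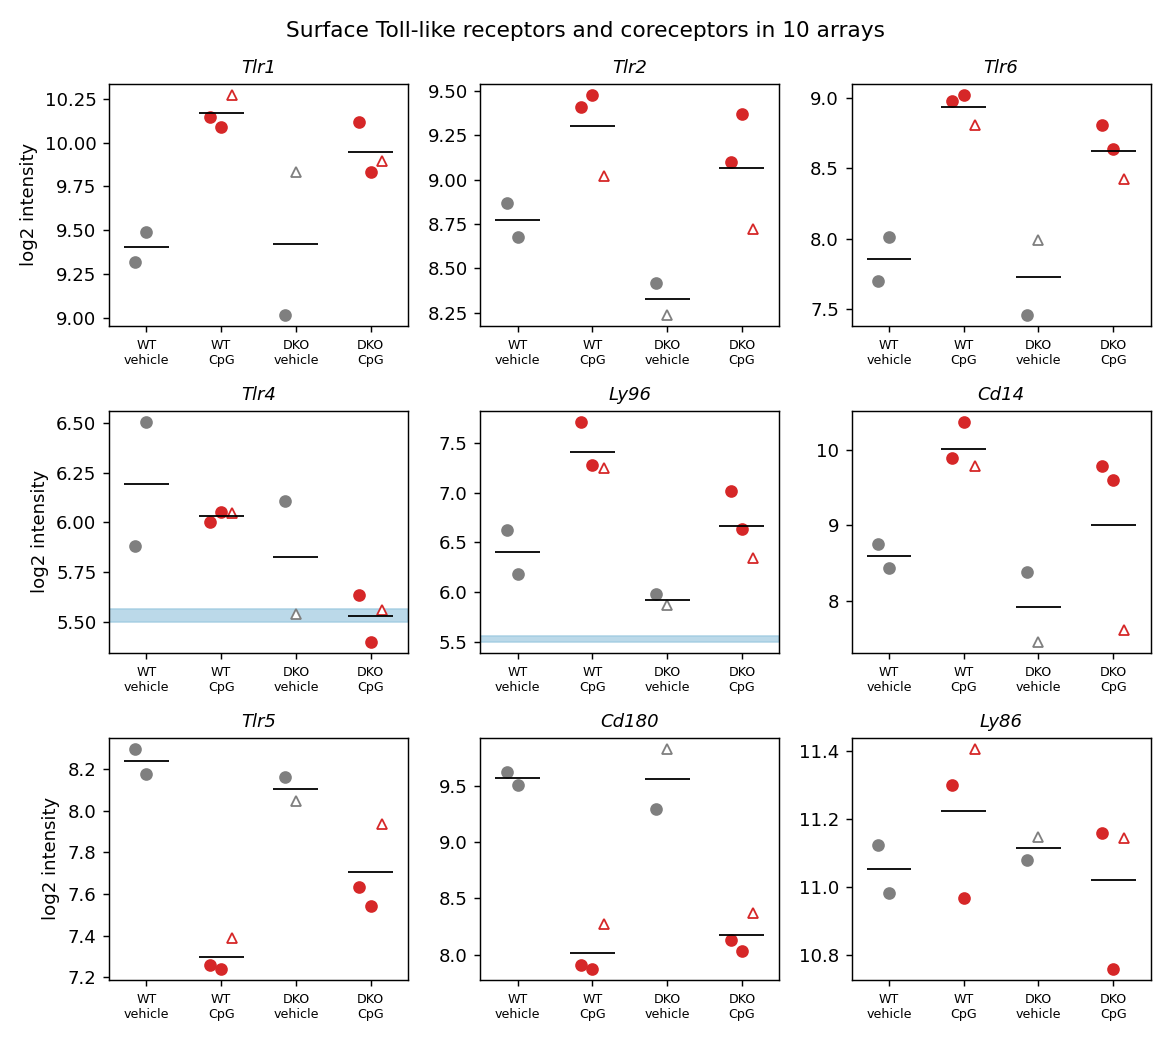
Log2 intensity (vertical axis) of the 9 genes in each of the 10 arrays by group, with lines at group means, grey for vehicle (unstimulated) and red for CpG. Open triangles are the arrays with titles numbered 20 and over, and the blue band in the Tlr4 and Ly96 panels spans the array medians over all probe sets (5.50 to 5.56); Cd180 and Tlr5 were lower in every CpG array, and Cd14 was low in both DKO arrays drawn as triangles.

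Tlr6, the Tlr2 partner for diacylated lipopeptides, measured 7.70 and 8.01 in WT unstimulated arrays and 8.98, 9.02 and 8.81 after CpG. All 3 CpG arrays were above both unstimulated arrays. The difference was 1.08 ± 0.18 (SE), or 2.11-fold (95% interval 1.60 to 2.79, adjusted p = 0.00218 in limma), and it was called in all 21 alternative settings.

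Tlr1, the partner for triacylated lipopeptides and the neighbour of Tlr6 among protein-coding genes of the reference, measured 9.32 and 9.49 in vehicle arrays and 10.15, 10.09 and 10.27 in CpG arrays. Its groups did not overlap either. It rose by 0.77 ± 0.21, or 1.70-fold (95% interval 1.24 to 2.33, adjusted p = 0.0224 in limma). The call was lost without either unstimulated array (adjusted p = 0.153 and 0.0811 without WT unstimulated 1 and 2), without WT CpG 1 (0.0558) and without WT CpG 3 (0.0635). Tlr1 and Tlr6 are close paralogs, and how far their probe sets share signal was not tested.

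Tlr2 itself, the shared chain of both pairs, measured 8.87 and 8.67 in vehicle arrays and 9.41, 9.48 and 9.02 in CpG arrays. The groups were apart, but the difference of 0.53 ± 0.20, or 1.45-fold, did not pass (adjusted p = 0.0820 in limma). WT CpG 3 was the lowest of the CpG arrays, and without it the difference was 0.67 and passed (adjusted p = 0.0442). It also passed without DKO CpG 3, which is in neither group and adds to the shared spread (adjusted p = 0.0370). With the title numbers as a block the difference was 0.66 and passed (adjusted p = 0.00575).

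Ly96, which binds the lipid part of lipopolysaccharide for Tlr4, measured 6.62 and 6.18 in vehicle arrays and 7.71, 7.28 and 7.24 in CpG arrays. All CpG arrays were above both unstimulated arrays, with a rise of 1.01 ± 0.22, or 2.02-fold (95% interval 1.45 to 2.81, adjusted p = 0.00764 in limma). Without WT unstimulated 2, the lower of its group, the difference was 0.79 and did not pass (adjusted p = 0.0949).

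Cd14, the lipid-transferring coreceptor, measured 8.76 and 8.43 in vehicle arrays and 9.89, 10.37 and 9.79 in CpG arrays. The groups were well apart, at a difference of 1.42 ± 0.54, or 2.68-fold. It did not pass in the fit to all arrays (adjusted p = 0.0904 in limma), in which the DKO CpG arrays spread widely for this gene. Without DKO CpG 3 the same difference passed (adjusted p = 0.00324), as it did with the WT arrays alone (adjusted p = 0.000688). With the title numbers as a block the difference was 1.80 and passed (adjusted p = 0.00322). As for Tlr2, the shift fitted for the block rests partly on the DKO arrays. With only the titles under 20 the Cd14 difference was 1.54.

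Tlr4 lay close to the array medians of 5.50 to 5.56. It measured 5.88 and 6.51 in WT unstimulated arrays and 6.0001, 6.05 and 6.05 after CpG, so the CpG arrays fell between the unstimulated ones. The difference was -0.16 ± 0.20 (95% interval -0.61 to 0.28), and it changed sign without WT unstimulated 2. No detection calls were used, and values this close to the array median may be near background.

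Cd180, the surface relative of the TLRs, measured 9.62 and 9.51 in vehicle arrays and 7.91, 7.87 and 8.27 in CpG arrays. Every CpG array was more than a unit below both unstimulated arrays. Cd180 fell by 1.55 ± 0.18, that is 2.92-fold lower (95% interval 2.20 to 3.88, adjusted p = 0.000331 in limma), and it was called in all 21 alternative settings.

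Ly86, the small protein that holds Cd180 at the surface, measured 11.12 and 10.98 in vehicle arrays and 11.30, 10.97 and 11.41 in CpG arrays. The groups overlapped, and the difference was 0.17 ± 0.16 (95% interval -0.19 to 0.54, adjusted p = 0.527 in limma). The interval excludes a fall of the size seen for Cd180.

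Tlr5, the flagellin receptor, measured 8.30 and 8.18 in vehicle arrays and 7.26, 7.24 and 7.39 in CpG arrays. The arrays within a group lay close together and the groups were apart. Tlr5 fell by 0.94 ± 0.14, or 1.92-fold (95% interval 1.56 to 2.36, adjusted p = 0.000911 in limma), and it was called in all 21 alternative settings.

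Markers of DCs and of other cells were read in the same arrays, where 8.24% of all genes were called higher with CpG and 13.3% lower. The counts below for cDC2, neutrophil and macrophage markers lie near these shares. The 12 tested B cell markers had 6 members lower and none higher in WT DCs, with a median of -0.61. Their summed level was 11.26 to 11.34 in WT unstimulated arrays and 10.22 to 10.28 after CpG on the log2 scale, and their part in the fall of Cd180 was not tested. The cDC1 markers, of the cross-presenting DC subset, had 7 of 10 lower and 1 higher, with a median of -1.11. The cDC2 markers had 2 of 11 lower and none higher, with a median of -0.45. The conventional DC markers had 5 of 9 lower and 1 higher, with a median of -0.44. The part of these DC lists in the falls of Tlr5 and Cd180 was not tested. Neutrophil markers had 2 of 14 higher and none lower, with a summed level of 11.65 to 12.20 without stimulation and 11.64 to 13.29 after CpG. The 7 monocyte markers had none higher and 2 lower, and the 14 macrophage markers had 1 higher and none lower. The part of these cells in the values of Cd14, Tlr2 and Ly96 was not tested. In bulk isolates, fewer cells of a type and less RNA per cell cannot be told apart.

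**Figure D2:**
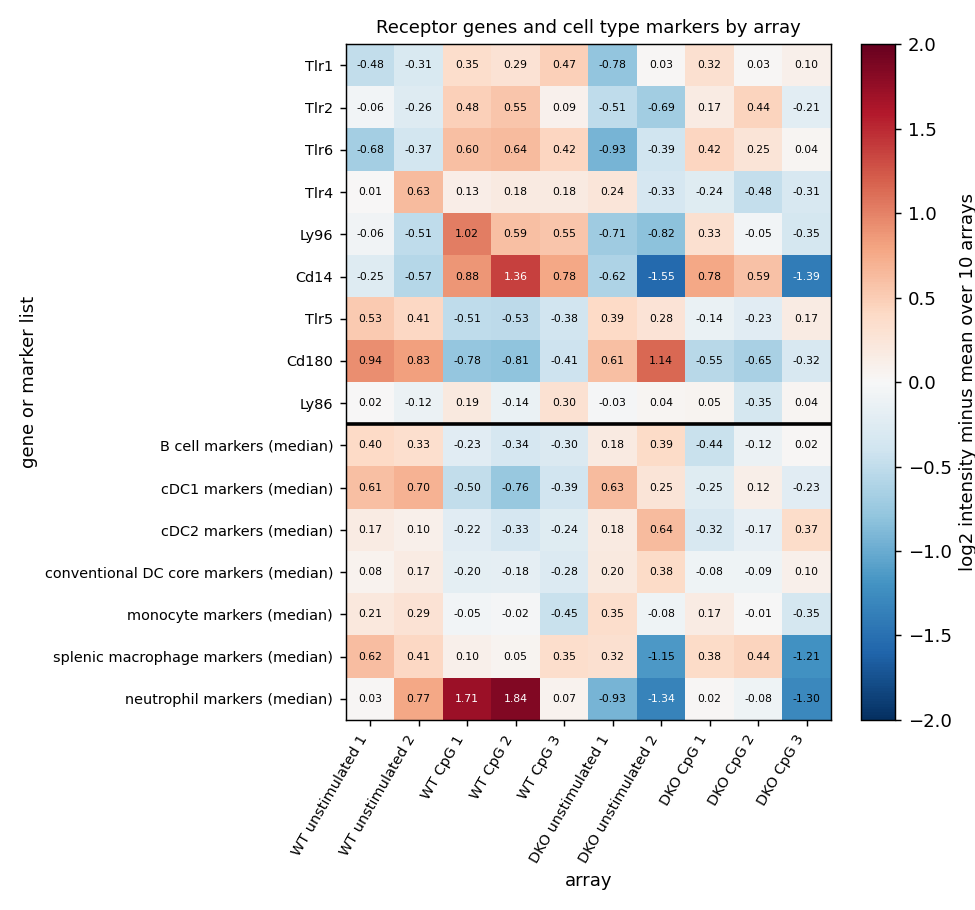
Log2 intensity of the 9 genes minus each gene's mean over the 10 arrays (upper rows), and the median of such centred values over each cell type marker list (lower rows), with arrays as columns. Cd180 and the B cell markers were lower in all WT CpG arrays than in the WT unstimulated arrays, and Cd14 (-1.55 and -1.39) and the macrophage markers (-1.15 and -1.21) were lowest in DKO unstimulated 2 and DKO CpG 3.

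The second comparison asks what CpG changes in DKO DCs. Of the 9 genes, Tlr2 and Tlr6 rose and Cd180 fell, while the other 6 did not pass. The same rule called 10.3% of all genes, 4.54% higher and 5.76% lower. The median of the 9 genes was 0.53, against -0.04 over all genes. At an unadjusted p under 0.05 there were 6 of 9, against 25.0% of all genes. CpG arrays lay wholly above in 3 genes and wholly below in 2, against 15.2% and 22.5% of all genes, or 37.7% together. A single member was called higher in both genotypes (Tlr6), against 3.96% of all genes, and a single member lower (Cd180), against 4.53%.

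Cd180 measured 9.29 and 9.83 in DKO unstimulated arrays and 8.13, 8.04 and 8.37 after CpG. All CpG arrays were below both unstimulated arrays, as in WT. It fell by 1.38 ± 0.18, or 2.60-fold (95% interval 1.96 to 3.45, adjusted p = 0.00179 in limma), and was called in all 21 alternative settings. B cell markers had 3 of 12 lower and none higher in DKO DCs, against 5.76% and 4.54% of all genes. Their median was -0.55, with a summed level of 10.98 to 11.16 without stimulation and 10.21 to 10.57 after CpG. Their part in this fall was not tested either. Ly86 again did not pass, at 11.08 and 11.15 against 11.16, 10.76 and 11.14, with a difference of -0.09 ± 0.16 (95% interval -0.46 to 0.27).

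Tlr6 measured 7.46 and 7.99 in DKO unstimulated arrays and 8.81, 8.64 and 8.42 after CpG. The groups were apart, and it rose by 0.90 ± 0.18, or 1.86-fold (95% interval 1.41 to 2.46, adjusted p = 0.0127 in limma). The call was lost without DKO unstimulated 1, the lower of its group, at a difference of 0.63 (adjusted p = 0.0899). It was also lost with the DKO arrays alone (adjusted p = 0.0685 in limma). Without the 3 Y-positive arrays, which left only DKO unstimulated 2 and DKO CpG 3 of the DKO arrays, the difference was 0.43.

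Tlr2 measured 8.42 and 8.24 in vehicle arrays and 9.10, 9.37 and 8.72 in CpG arrays. Its groups were apart and it rose by 0.74 ± 0.20, or 1.67-fold (95% interval 1.23 to 2.25, adjusted p = 0.0397 in limma). It lay close to the threshold, and leaving out 8 of the 10 arrays, each in turn, ended the call, the exceptions being WT CpG 3 and DKO CpG 3.

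The other rises seen in WT pointed the same way in DKO DCs but did not pass in the fit to all arrays. Ly96 measured 5.98 and 5.87 in vehicle arrays and 7.01, 6.63 and 6.34 in CpG arrays, with no overlap and a difference of 0.74 ± 0.22 (adjusted p = 0.0560 in limma). Its vehicle values lay close to the array medians of 5.50 to 5.56 and, like those of Tlr4, may be near background. Ly96 passed in 4 of 21 alternative settings. These were the title numbers as a block (0.69, adjusted p = 0.0367 in limma), trend and robust (adjusted p = 0.0485), array medians subtracted (0.0465) and leaving out DKO CpG 3 (0.90, adjusted p = 0.0179). Tlr1 measured 9.02 and 9.83 in vehicle arrays and 10.12, 9.83 and 9.90 in CpG arrays, so the groups touched, with a difference of 0.53 ± 0.21 (adjusted p = 0.137). The Tlr1 difference rested on which unstimulated array was kept: it was 0.93 and passed without DKO unstimulated 2 (adjusted p = 0.0200), and it was 0.12 without DKO unstimulated 1 (adjusted p = 0.738).

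Cd14 was the most variable of the 9 genes among DKO arrays. It measured 8.38 and 7.46 in vehicle arrays and 9.78, 9.60 and 7.62 in CpG arrays, so DKO CpG 3 lay within the unstimulated range and far below the other CpG arrays. The difference was 1.08 ± 0.54 (95% interval -0.12 to 2.28, adjusted p = 0.249 in limma). Without DKO CpG 3 it was 1.77 and passed (adjusted p = 0.00347), while it was 0.62 without DKO unstimulated 2 (adjusted p = 0.691) and 0.69 without DKO CpG 1 (adjusted p = 0.534). The summed level of the macrophage markers was as low as 12.78 and 12.60 in DKO unstimulated 2 and DKO CpG 3 and at least 14.16 in the other 8 arrays, and the part of macrophages in these Cd14 values was not tested.

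Tlr5 measured 8.16 and 8.05 in DKO unstimulated arrays and 7.63, 7.54 and 7.93 after CpG. The groups did not overlap, but the difference of -0.40 ± 0.14 did not pass (adjusted p = 0.0912 in limma). Without DKO CpG 3, the highest CpG array, it was -0.52 and passed (adjusted p = 0.0221). Tlr4 measured 6.11 and 5.54 in vehicle arrays and 5.64, 5.40 and 5.56 in CpG arrays, at or near the array medians, and its difference of -0.29 ± 0.20 did not pass.

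**Figure D3:**
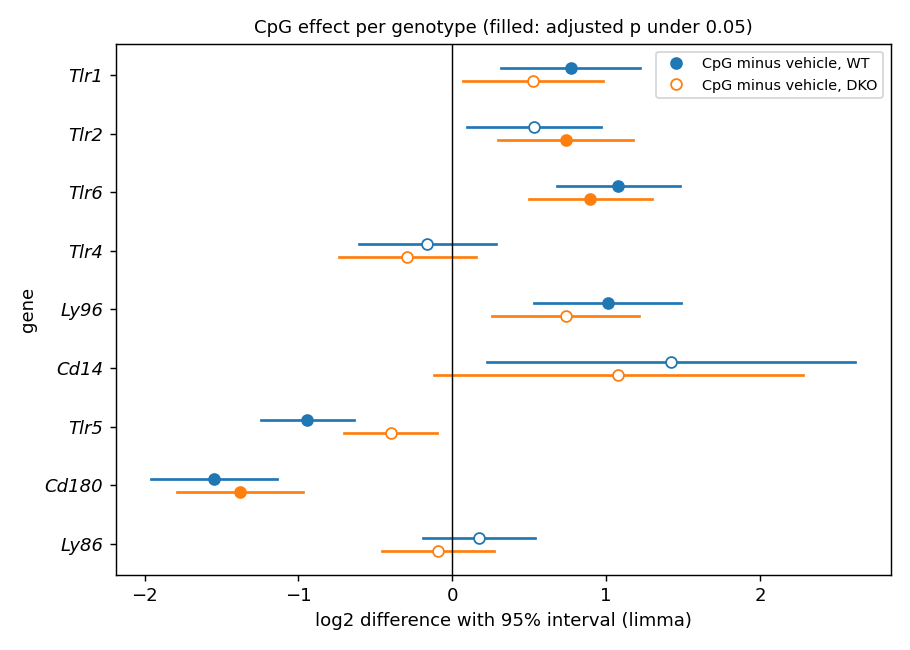
Log2 difference between CpG and vehicle (horizontal axis) for each of the 9 genes in WT (blue) and DKO (orange) DCs, with 95% intervals from limma. Filled points passed at an adjusted p under 0.05; Cd180 (-1.55 and -1.38) and Tlr6 (1.08 and 0.90) passed in both genotypes.

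The DKO arrays allow the CpG difference to be read within each range of title numbers, without a test. Among arrays with lower numbers (DKO unstimulated 1, DKO CpG 1 and 2) Tlr1 was higher after CpG by 0.96, Tlr6 by 1.26, Tlr2 by 0.82, Ly96 by 0.84 and Cd14 by 1.31. Between DKO unstimulated 2 and DKO CpG 3 the same differences were 0.07 for Tlr1, 0.43 for Tlr6, 0.48 for Tlr2, 0.47 for Ly96 and 0.16 for Cd14. Tlr5 differed by -0.57 and -0.11, and Tlr4 by -0.59 and 0.02. Only Cd180 had the larger difference in the second set, at -1.21 and -1.46. The difference was smaller in the second set for 8 of the 9 genes, as it was for 50.8% of all genes tested and 61.9% of the 2885 genes called for CpG in WT. Its arrays also differed from the rest in macrophage markers and, from the other DKO arrays, in Y-linked signal, and these cannot be told apart here.

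**Figure D4:**
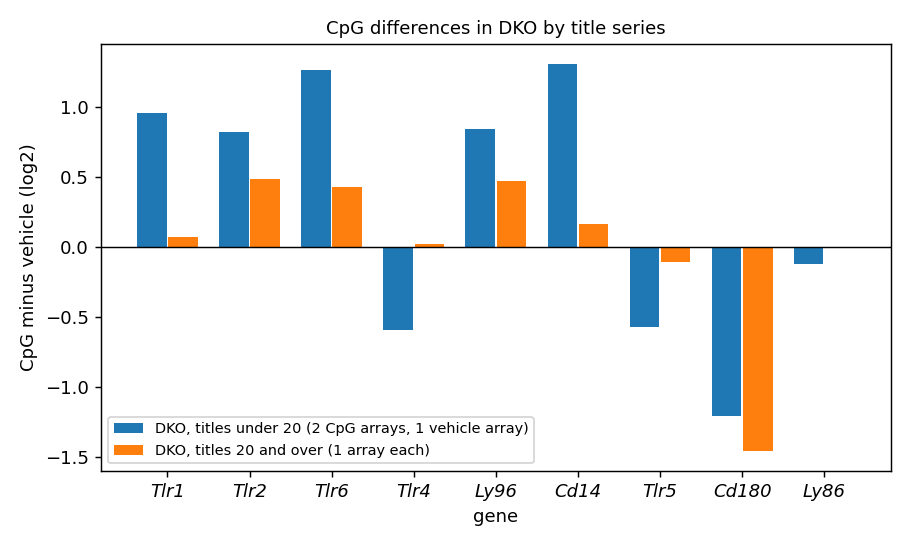
CpG minus vehicle difference (log2, vertical axis) of the 9 genes in DKO DCs, from arrays with titles numbered under 20 (blue) and from arrays with titles numbered 20 and over (orange), without error bars because each bar rests on 2 or 3 arrays. Tlr1 (0.96 and 0.07) and Cd14 (1.31 and 0.16) had the widest gaps, and Cd180 (-1.21 and -1.46) was lower after CpG in both.

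The next comparison asks whether the CpG effect itself depends on the 2 complement receptors. None of the 9 genes passed in limma's test of the difference of CpG effects (DKO minus WT), which called 0.00748% of all genes, a single gene. At an unadjusted p under 0.05 there was 1 of the 9 (Tlr5), against 5.65% of all genes. For Tlr5 the fall was smaller in DKO DCs without passing, with a difference of 0.54 ± 0.19 (95% interval 0.12 to 0.97, adjusted p = 0.797 in limma). The value was positive in all 20 alternative settings, from 0.37 to 0.83, and passed in none of them (adjusted p = 0.313 to 0.999). For genes called in a single genotype the difference was -0.24 (95% interval -0.89 to 0.40) for Tlr1, -0.27 (-0.95 to 0.40) for Ly96 and 0.20 (-0.41 to 0.82) for Tlr2. For Cd180 it was 0.17 (-0.41 to 0.75), for Tlr6 -0.18 (-0.75 to 0.38) and for Cd14 -0.34 (-2.04 to 1.35). Each of these 6 intervals includes 0 and values to either side of it, which does not show that the genotypes respond alike.

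Genotypes were then compared at rest and after CpG. Without stimulation limma called none of the 9 genes and 0.00748% of all genes, and 0 of 9 had an unadjusted p under 0.05, against 4.63% of all genes. DKO arrays lay below WT arrays without overlap for Tlr2, Tlr5, Ly96 and Cd14, 4 of 9 genes, against 15.9% of all genes below and 34.2% in either direction. Tlr2 differed by -0.44 ± 0.22, Ly96 by -0.47 ± 0.24, Cd14 by -0.68 ± 0.59 and Tlr5 by -0.13 ± 0.15. The DKO values of Ly96 (5.98 and 5.87) lay close to the array medians. Leaving out single arrays moved Cd14 from -1.14 (without DKO unstimulated 1) to -0.21 (without DKO unstimulated 2), and Ly96 from -0.70 (without WT unstimulated 2) to -0.25 (without WT unstimulated 1). With the title numbers as a block Cd14 differed by -0.11, Tlr2 by -0.25 and Tlr5 by -0.21. Cd180 differed by -0.0069 ± 0.20 (95% interval -0.45 to 0.44). Neutrophil markers had a summed level of 10.33 to 10.78 in DKO and 11.65 to 12.20 in WT unstimulated arrays. All 14 macrophage markers had a difference below 0, with a median of -0.89 and none called, and their summed level was 12.78 to 14.27 in DKO and 14.43 to 14.47 in WT unstimulated arrays. The part of either list in these values was not tested.

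After CpG, limma again called none of the 9 genes, and 0.120% of all genes (0.0524% higher and 0.0673% lower). At an unadjusted p under 0.05 there were 3 of 9 (Ly96, Tlr4 and Tlr5), against 14.3% of all genes. Ly96 was lower in all 3 DKO CpG arrays (6.34 to 7.01) than in the WT CpG arrays (7.24 to 7.71), with a difference of -0.75 ± 0.19, or 1.68-fold (95% interval -1.18 to -0.32 on the log2 scale, adjusted p = 0.115 in limma). It passed with the title numbers as a block (adjusted p = 0.0483 in limma) and without DKO CpG 1 (0.0453), but not in most of the 21 alternative settings. Within lower title numbers the difference was -0.67, and between WT CpG 3 and DKO CpG 3 it was -0.90. In the lower range the DKO arrays carried Y-linked signal and the WT arrays did not. In the other range DKO CpG 3 was low in macrophage markers. Genotype cannot be told apart from these differences.

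Tlr4 also lay lower in DKO CpG arrays (5.40 to 5.64) than in WT CpG arrays (6.0001 to 6.05), with a difference of -0.50 ± 0.18 (adjusted p = 0.242 in limma), with the DKO values near the array medians. Tlr5 was higher in DKO CpG arrays (7.54 to 7.93) than in WT CpG arrays (7.24 to 7.39), by 0.41 ± 0.12 (adjusted p = 0.164). Cd14 differed by -1.02 ± 0.48 (adjusted p = 0.375), and without DKO CpG 3 by -0.33. With the title numbers below 20 its difference was -0.44, and between the arrays numbered 20 and over it was -2.17. The limits named for Ly96 in these ranges hold for Cd14 as well. Tlr6 differed by -0.31 ± 0.16 (adjusted p = 0.416 in limma). Its groups all but touched, with the highest DKO array at 8.80957 and the lowest WT array at 8.8098. So did those of Cd14 (9.78465 and 9.78832). DKO arrays lay below WT arrays without overlap in 4 of the 9 genes (Tlr6 and Cd14 included), against 7.58% of all genes. They lay above in 1 (Tlr5), against 11.6%, or 19.2% in either direction. Neutrophil markers had a summed level of 10.41 to 11.56 in DKO CpG arrays and 11.64 to 13.29 in WT CpG arrays, and their part in the lower values of Ly96 and Cd14 was not tested.

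**Figure D5:**
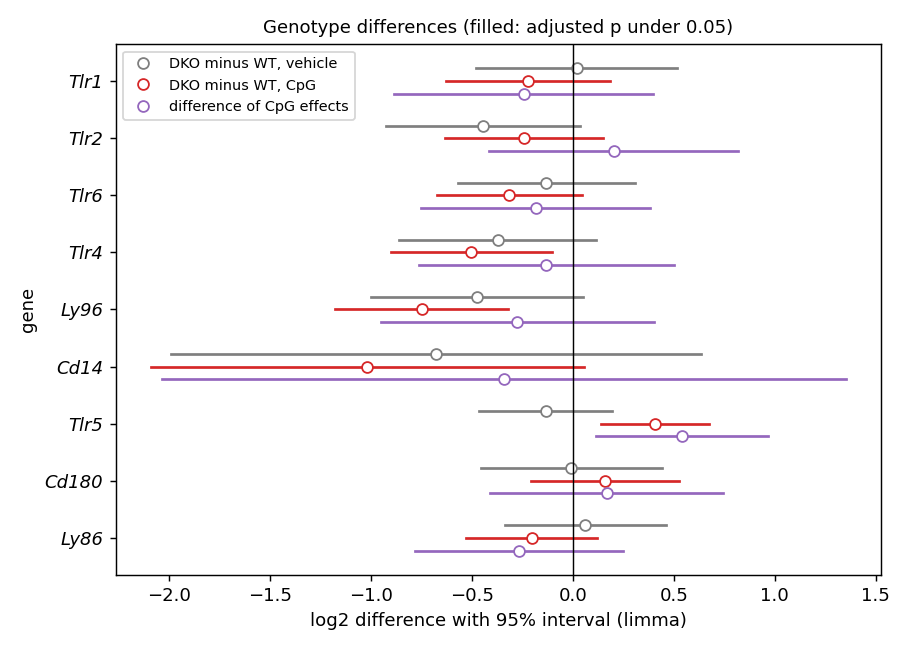
Log2 differences (horizontal axis) of DKO minus WT without stimulation (grey) and after CpG (red), and of the CpG effects, DKO minus WT (purple), for each of the 9 genes with 95% intervals from limma. All points are open because none passed at an adjusted p under 0.05; the intervals of Ly96, Tlr4 and Tlr5 after CpG lie on a single side of 0.

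Other genes of the pathway were called in both directions. Of 28 accessory and signalling genes of surface TLRs listed, 25 were tested. Of these, 6 rose and 4 fell with CpG in WT DCs (median 0.19), against 8.24% and 13.3% of all genes. In DKO DCs 4 rose and 1 fell (median 0.25), against 4.54% and 5.76% of all genes. The counts that fell lie near these shares. Myd88, the adaptor shared by the signalling TLRs described here, rose by 0.91 ± 0.13 in WT and 0.78 ± 0.13 in DKO. Pik3ap1, an adaptor linking TLRs to phosphoinositide 3-kinase, rose by 0.76 ± 0.13 and 0.56 ± 0.13. Traf6, the ubiquitin ligase downstream of Myd88, and Tnfaip3 (A20), which opposes it, rose in DKO DCs by 0.86 ± 0.16 and 0.98 ± 0.19 and in WT DCs by 0.60 ± 0.16 and 0.78 ± 0.19. Without DKO unstimulated 2 none of these 4 genes passed in DKO DCs, with adjusted p of 0.0608 for Myd88, 0.136 for Pik3ap1, 0.0888 for Traf6 and 0.0962 for Tnfaip3 in limma. Cd36, a scavenger receptor that assists Tlr2 and Tlr6, changed by -1.78 ± 0.18 in WT DCs (adjusted p = 0.000167 in limma) and differed by -0.63 ± 0.18 in DKO DCs without passing (adjusted p = 0.0536). Cnpy4, a relative of the chaperone that brings TLRs to the surface, changed by -0.64 ± 0.13 in WT DCs and by -0.50 ± 0.13 in DKO DCs (adjusted p = 0.0394 in limma), and the call in WT was lost without WT unstimulated 1 (-0.49, adjusted p = 0.0857). The WT values of Traf6 and Tnfaip3 and the DKO values of Cd36 and Cnpy4 lie outside the naming rule and were chosen after their values were seen. Of the 8 endosomal genes (the TLRs and Unc93b1), none rose. Against 13.3% of all genes in WT and 5.76% in DKO, 3 of them fell in each genotype. They were Tlr3 (-2.54 in WT and -2.17 in DKO), Tlr11 (-2.20 and -1.54) and Tlr12 (-1.17 and -0.71), and Tlr12 no longer passed in DKO DCs without DKO unstimulated 1 (adjusted p = 0.0594). The cDC1 markers had medians of -1.11 in WT and -0.68 in DKO DCs, and their part in the falls of these 3 genes was not tested. No gene of the 2 pathway lists passed in the 3 comparisons that involve genotype, which called 0.120% of all genes or fewer.

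For each of the 6 genes called in any comparison, the 2 most similar of 12114 other tested genes were found by Pearson's r over the 10 arrays, which share the CpG contrast. They were Ctc1 and Gins1 for Tlr5 (r = 0.991 and 0.985), Bphl and Rab11a for Cd180 (0.985 and 0.983), Pex13 and Mier3 for Tlr1 (0.980 and 0.950), Swap70 and Il12a for Tlr6 (0.979 and 0.976), Utp4 and Treml2 for Tlr2 (0.971 and 0.969) and Fbxo30 and Ly6i for Ly96 (0.965 and 0.961). These values are a description over arrays in 4 groups, with no test.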

How the data were processed

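The authors' table holds a log2 intensity for each probe set and array, and the submitters' processing notes name RMA and Affymetrix Expression Console, with no versions. RMA removes background, quantile-normalizes the arrays and summarises the probes of a set, so values describe relative levels. Of 41345 probe sets, 23521 named 1 gene, 1814 named more than 1 and 16010 named none. For each of 22180 symbols the probe set with the highest mean over 10 arrays was used. A gene was tested where it exceeded the array's median in at least 2 arrays, which left 13371. All 10 arrays entered one limma fit of 4 group means (lmFit and eBayes, limma 3.58.1, R 4.3.3), where 6 degrees of freedom were residual and 4.49 came from the prior. Tests were two-sided, and p-values were adjusted by Benjamini-Hochberg over the genes tested. Values after ± are standard errors, and intervals are 95%. The script was tested on simulated data. Marker lists were described by the median of values centred per gene, and by the log2 of summed linear intensities. The number of arrays limits the precision. Plots used matplotlib 3.10.9 and Python 3.11.15.

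The 9 genes and the lists were chosen with earlier results of these data known. Genes were named by rule: the 9 genes, C3ar1 and C5ar1, up to 4 called genes with the smallest p from each of the 2 pathway lists in a comparison, and the 2 genes most similar to each called member. Of the listed pathway genes, 3 were not analysed here. Alternatives changed the filter, the variance model, the normalization, the probe sets, the arrays in the fit and the title numbers as a block. Those without the Y-positive or macrophage-low arrays were chosen after seeing the data.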

Additional observations from a re-analysis of the deposited data

How the results depend on the processing

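Fits of each difference of the 9 genes under the alternatives numbered 936, and 858 kept both direction and side of the threshold, 29 passed where the reported value did not, 20 no longer passed and 29 changed sign. In part of these fits the difference could not change. Each of the 9 genes had 1 probe set, so averaging probe sets changed nothing, and an array left out often belonged to neither compared group. The causes of the changes below were not tested. The reported differences that changed sign were not all near 0. The largest were -0.34 (Cd14, difference of CpG effects) and -0.29 (Tlr4, CpG in DKO). Tlr1, DKO minus WT without stimulation, was -0.10 with the title block, -0.39 with titles under 20 or without DKO unstimulated 2 and DKO CpG 3, and -0.39 to 0.43 leaving out single arrays. Leaving out single arrays, the same comparison gave -0.40 to 0.14 for Tlr6, -0.28 to 0.26 for Cd180 and -0.0089 to 0.13 for Ly86. Without the 3 Y-positive arrays it was 0.14 for Tlr6 and 0.26 for Cd180, and Ly86 was -0.031 with the block. The CpG difference of Tlr4 in WT was -0.47 to 0.15 and of Ly86 in DKO -0.16 to 0.038 leaving out single arrays, and Tlr4 in DKO was 0.020 without the Y-positive arrays. The difference of CpG effects was 0.24 for Tlr1 and 0.12 for Tlr6 with titles under 20, and 0.19 and 0.18 without the 2 macrophage-low arrays. Without the Y-positive arrays it was -0.049 for Tlr2 and 0.18 for Tlr4. Leaving out single arrays, it was -0.65 to 0.16 for Tlr1, -0.44 to 0.18 for Tlr4, -0.45 to 0.084 for Tlr6, -0.81 to 0.35 for Cd14 and -0.10 to 0.44 for Cd180.

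Of the 9 genes, leaving out single arrays left 3 to 7 called for CpG in WT, 1 to 6 for CpG in DKO, 0 to 1 for DKO minus WT after CpG, and 0 in the other comparisons. Tlr5, Tlr6 and Cd180 were called in WT without any single array, and Cd180 also in DKO. For CpG in DKO, 5 were called with titles under 20 and 1 each with the compared groups alone and without the Y-positive arrays. For DKO minus WT after CpG, 1 was called with the block and 3 (Cd14, Ly96 and Tlr5) without the Y-positive arrays.

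Of all genes, leaving out single arrays gave 1277 to 3226 calls for CpG in WT, 423 to 1909 for CpG in DKO, 1 to 2 for DKO minus WT without stimulation, 2 to 267 for DKO minus WT after CpG and 0 to 1 for the difference of CpG effects. CpG in DKO had 402 with the compared groups alone and 408 without the Y-positive arrays. DKO minus WT without stimulation had 2 with the block, 23 with titles under 20, 12 with the compared groups alone, 5 without the macrophage-low arrays and 250 without the Y-positive arrays. After CpG it had 7 with the stricter filter, 296 with the block, 90 with titles under 20, 3 with the compared groups alone, 76 with trend and robust, 26 without the macrophage-low arrays and 723 without the Y-positive arrays. The difference of CpG effects had 2 with titles under 20 and 0 with the block, quantile normalization, array medians subtracted or no Y-positive arrays. No paired analysis was possible because the labels give no shared replicate numbers.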
